A study of Rattus norvegicus with 8 samples.

Results

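Neutrophil granule and maturation genes were followed through single-cell libraries of the rat spinal cord. The 9 genes, of 32623 in the gene list, were taken by symbol: Retnlg (ENSRNOG00000001943), Pglyrp1 (ENSRNOG00000013395), Lcn2 (ENSRNOG00000013973), Camp (ENSRNOG00000020733), Ltf (ENSRNOG00000031779), Slpi (ENSRNOG00000046699), Mcemp1 (ENSRNOG00000028259), Csf3r (ENSRNOG00000008759) and Cxcr2 (ENSRNOG00000014269). Neutrophils are made in the bone marrow, where their precursors fill several kinds of granules in order, azurophil granules before specific and gelatinase granules. Transcripts of granule proteins decline as the cells mature, while receptors for growth factors and chemokines appear on the surface of the mature cell. Neutrophils are known to enter the injured spinal cord from the blood and there to make chemokines and interleukin-1.

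Female Wistar rats, 8 weeks old, received a contusion at spinal level T9 from a falling weight of 10 g. The weight fell from 50 mm for severe injury, from 25 mm for moderate injury and from the lowest of the 3 heights for mild injury, and sham rats had the laminectomy without a contusion. A piece of cord 10 mm long was taken 7 days after surgery, digested to single cells and sequenced with the 10x Chromium 3′ chemistry. Each of the 4 groups had 2 libraries, called replicates 1 and 2. The paper writes of 8 spinal cords sequenced, but the labels do not say whether the 2 libraries of a group came from separate animals. The p-values thus measure at most the spread between libraries, estimated over many genes together, and that spread may be technical.

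The 8 libraries held 68658 cells, with 3069 to 12674 cells and 31482153 to 131045446 UMIs (unique molecular identifiers, which mark single RNA molecules) in each. The median cell had 2913.5 UMIs in sham replicate 1 and up to 10432 UMIs in the other libraries. Any pair of libraries shared 5 to 40 cell barcodes. The genes were compared between 2 classes of cells. S100-rich cells held at least 12% of their UMIs on S100a8 and S100a9, which encode the calprotectin of the neutrophil cytosol. Low-UMI cells held 400 to 2500 UMIs in all and at least 5 UMIs of G0s2, Cxcl2 and Il1b together. None of the 9 genes was used to choose cells.

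Sham replicate 1 stood apart from the other libraries, sham replicate 2 included. It held 2494 of the 2579 cells that were only S100-rich, 22.6% of its own cells, while sham replicate 2 held 1 such cell. The 7429 cells that were only low-UMI were spread over all libraries, from 29 in sham replicate 2 to 1810 in mild replicate 1, and 1162 cells met both definitions. Outside sham replicate 1, 83.7% of the S100-rich cells were also low-UMI cells, beside 22.5% in sham replicate 1. Cells of both definitions were kept out of either class unless stated otherwise. Levels are given as CPM, UMIs of a gene per 1000000 UMIs of all genes in the summed cells of a class in a library, and classes with fewer than 20 cells in a library were left out. The total includes S100a8 and S100a9, which held 35.0% of the UMIs of the median S100-rich cell of sham replicate 1. In the median low-UMI cell of that library they held 3.41%. This lowers the CPM of other genes in S100-rich cells, while the test between the classes leaves S100a8 and S100a9 out.

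The 12 neutrophil markers summed to between 154209 and 362253 CPM in the 4 libraries with at least 20 S100-rich cells, which were sham, mild, moderate and severe replicate 1, and 16 markers of macrophages and microglia to between 713 and 6883 CPM. Most of the neutrophil sum was S100a8 and S100a9, which chose the cells, so the sum is a description of that choice. Of the other 10 markers 1, the collagenase gene Mmp8, was higher in S100-rich than in low-UMI cells of all 4 libraries, while Il1r2, a decoy receptor of interleukin-1, and Hcar2 were lower in all 4, and the other 7 had no such common order. These 10 markers summed to between 1797 and 20275 CPM in S100-rich cells and between 1086 and 5716 CPM in the low-UMI cells of 7 libraries, where all 12 summed to between 14134 and 49559 CPM. The highest S100-rich sum of the 10 markers, in severe replicate 1, held 15466 CPM of the marker Ngp. In S100-rich cells Ngp was at 34.3 CPM in the sham library and 0 in the mild and moderate library. In the low-UMI cells of sham replicate 2 the sum was 37.2 CPM, with S100a8 and S100a9 at 0. The macrophage and microglia markers reached 28222 CPM there. The 29 low-UMI cells of sham replicate 2 thus held next to no markers of neutrophils, 2 of 12 being detected, and values from that library are given with this in view.

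The stretch of 250 bases before the transcription start is shown for the genes whose levels set the classes apart, since such genes are often scanned for a shared regulatory motif. The sequences are those of RefSeq on the build GRCr8, on the strand of the gene, and 8 of the 9 genes had one. The motif AGGAAG, the core bound by factors of the ETS family such as PU.1, is in capitals, on the other strand as CTTCCT. Retnlg lies at chr11:65395640-65395889 on the minus strand, Pglyrp1 at chr1:87659613-87659862 on the plus strand, Lcn2 at chr3:36081781-36082030 on the minus strand and Camp at chr8:118721999-118722248 on the minus strand.
Retnlg: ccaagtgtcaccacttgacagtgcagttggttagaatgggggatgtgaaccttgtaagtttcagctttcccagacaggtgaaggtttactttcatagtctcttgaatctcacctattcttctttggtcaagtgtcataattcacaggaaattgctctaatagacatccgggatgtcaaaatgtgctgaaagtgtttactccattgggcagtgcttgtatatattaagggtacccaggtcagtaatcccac
Pglyrp1: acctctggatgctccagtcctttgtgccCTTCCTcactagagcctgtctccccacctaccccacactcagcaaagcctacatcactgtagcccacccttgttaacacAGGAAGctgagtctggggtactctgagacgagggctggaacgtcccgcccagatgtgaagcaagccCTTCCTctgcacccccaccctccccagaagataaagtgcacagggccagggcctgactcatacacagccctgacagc
Lcn2: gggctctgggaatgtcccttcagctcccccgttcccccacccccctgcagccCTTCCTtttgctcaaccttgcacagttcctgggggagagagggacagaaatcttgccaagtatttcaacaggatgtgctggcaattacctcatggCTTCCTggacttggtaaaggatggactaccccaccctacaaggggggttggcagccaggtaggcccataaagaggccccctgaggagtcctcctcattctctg
Camp: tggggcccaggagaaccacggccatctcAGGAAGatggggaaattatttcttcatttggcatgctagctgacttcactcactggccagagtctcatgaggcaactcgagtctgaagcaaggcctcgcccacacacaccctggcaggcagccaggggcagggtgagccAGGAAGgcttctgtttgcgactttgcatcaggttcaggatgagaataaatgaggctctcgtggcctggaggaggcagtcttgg

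AGGAAG was present on either strand in 6 of the 8 stretches, those of Pglyrp1, Lcn2, Csf3r, Camp, Ltf and Cxcr2, and in 29.5% of all 33469 stretches of this length. Retnlg, with the widest difference between the classes of the 8 tested genes, held none. TTNNGNAA, a loose form of the sites of C/EBP factors, was found in those of Lcn2 and Csf3r, 2 of 8, and in 37.2% of all stretches. The TATA box TATAAA was found in 0 of 8 and in 12.9% of all. These matches describe the letters of the stretches and were not linked to binding.

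Among the secreted granule genes, 4 had higher levels in S100-rich than in low-UMI cells, namely Retnlg, Camp, Lcn2 and Pglyrp1, and Ltf was all but undetected. The receptors Csf3r and Cxcr2, the protease inhibitor Slpi and the membrane protein Mcemp1 did not pass the test between the classes. The comparison used summed counts of the 4 libraries with at least 20 cells of each class, with the library as a term and the 5 genes that chose the cells removed. By edgeR's quasi-likelihood test with Benjamini-Hochberg adjustment over 5216 genes, 237 genes (4.54%) had an adjusted p under 0.05, 103 higher (1.97%) and 134 lower (2.57%). Of the 8 genes of the group that were tested, 4 were higher and 0 were lower. Their median log2 fold change was 1.75, beside a median of -0.17 over all genes tested. When libraries were scaled by their size only, without TMM factors, the calls were split differently, into 206 higher and 169 lower.

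Retnlg encodes resistin-like gamma, a secreted protein of the resistin family made by myeloid cells. It reached 4109, 251, 1453 and 7528 CPM in the S100-rich cells of sham, mild, moderate and severe replicate 1, and 328, 13.1, 4.73 and 17.8 CPM in their low-UMI cells. S100-rich cells were higher within every one of the 4 libraries. Yet the low-UMI cells of sham replicate 1 held more Retnlg than the S100-rich cells of mild replicate 1, where it rests on 5 UMIs. The log2 fold change was 6.20 (SE 0.54, edgeR adjusted p = 4.3e-27). In the low-UMI cells of severe replicate 2, 337 of 371 Retnlg UMIs lay in 1 cell, and without it the level was 20.7 CPM in place of 226 CPM.

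Pglyrp1, a granule protein that binds the peptidoglycan of bacterial walls, showed the same order at a smaller distance. The S100-rich cells held 3160, 1604, 2027 and 1234 CPM in sham, mild, moderate and severe replicate 1, and the low-UMI cells 842, 479, 305 and 65.2 CPM. The ranges of the classes did not overlap. Its log2 fold change was 2.80 (SE 0.41, edgeR adjusted p = 1.87e-09), and no single cell held more than 18.9% of the UMIs of the S100-rich class in any of these libraries.

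Camp encodes cathelicidin, the precursor of an antimicrobial peptide stored in specific granules. It was found at 645, 301, 4512 and 27853 CPM in the S100-rich cells of sham, mild, moderate and severe replicate 1 and at 350, 183, 73.3 and 155 CPM in the low-UMI cells. The difference was wide in the moderate and severe library and under 2-fold in the sham and mild library. In moderate replicate 1, 101 of the 118 Camp UMIs came from 1 of 20 cells, and without that cell the level was 1061 CPM. In severe replicate 1, 1 of 22 cells held 1082 of 3319 Camp UMIs. For Camp the log2 fold change was 3.95 (SE 0.56, edgeR adjusted p = 8.58e-10), 3.01 (adjusted p = 6.11e-08) when the highest cell of each class and library was left out, and 2.54 without severe replicate 1. Within sham, mild, moderate and severe replicate 1 the log2 difference of Camp was 0.88, 0.72, 5.94 and 7.49. The SE and p-value borrow the spread over genes and do not measure this spread of Camp alone.

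Lcn2 encodes lipocalin 2, a specific granule protein that withholds iron from bacteria by binding their siderophores. It reached 357, 100, 76.5 and 4154 CPM in S100-rich cells and 173, 33.3, 2.37 and 3.56 CPM in low-UMI cells of sham, mild, moderate and severe replicate 1. The levels of the mild and moderate library in S100-rich cells rest on 2 UMIs each, both in 1 cell, and 189 of the 495 Lcn2 UMIs of severe replicate 1 lay in 1 cell. The classes differed by 3.85 on the log2 scale (SE 0.57, edgeR adjusted p = 3.38e-09), and by 1.81 without severe replicate 1, and DESeq2 gave 3.92 with an adjusted p of 0.112, so that the call was lost. Within libraries the log2 difference of Lcn2 was 1.05 in sham and 10.2 in severe replicate 1, a spread that the SE, borrowed over genes, does not measure alone.

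Ltf, the gene of the iron-binding specific granule protein lactoferrin, had 7 UMIs in all 68658 cells. Of these, 1 lay in a low-UMI cell and none in an S100-rich cell. It was not detectable at this depth and entered no test.

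Slpi encodes a secreted inhibitor of neutrophil elastase and cathepsin G that macrophages and epithelia also make. It had by far the most UMIs of the 9 genes, 737967, and 72.7% of them lay outside both classes. The S100-rich cells held 7618, 28375, 4933 and 3390 CPM in sham, mild, moderate and severe replicate 1, and the low-UMI cells 14855, 15657, 7179 and 7697 CPM. S100-rich cells were higher in the mild library and lower in the other 3. Slpi had a log2 fold change of -0.31 (SE 0.41, edgeR adjusted p = 0.832).

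Mcemp1, a membrane protein of mast cells and other myeloid cells, was nearly level across the classes. It lay at 1861, 1203, 1797 and 1586 CPM in S100-rich cells and at 1750, 1229, 1256 and 1303 CPM in low-UMI cells of the same libraries. The ranges overlapped, with a log2 fold change of 0.40 (SE 0.37, edgeR adjusted p = 0.745).

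Csf3r is the receptor of granulocyte colony-stimulating factor, which drives neutrophil production. Its level was 365, 652, 382 and 126 CPM in the S100-rich cells of sham, mild, moderate and severe replicate 1, and 742, 409, 308 and 287 CPM in the low-UMI cells, so that the classes overlapped and their order changed between libraries (log2 fold change -0.20, SE 0.36, edgeR adjusted p = 0.892). Cxcr2, the receptor of Cxcl1 and Cxcl2 on mature neutrophils, lay at 312, 351, 0 and 109 CPM in S100-rich cells. The low-UMI cells held 389, 103, 47.3 and 56.9 CPM of Cxcr2. The value of 0 CPM stands for no UMI among 26150, which allows up to 115 CPM. Cxcr2 had a log2 fold change of 0.70 (SE 0.41, edgeR adjusted p = 0.472).

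**Figure D1:**
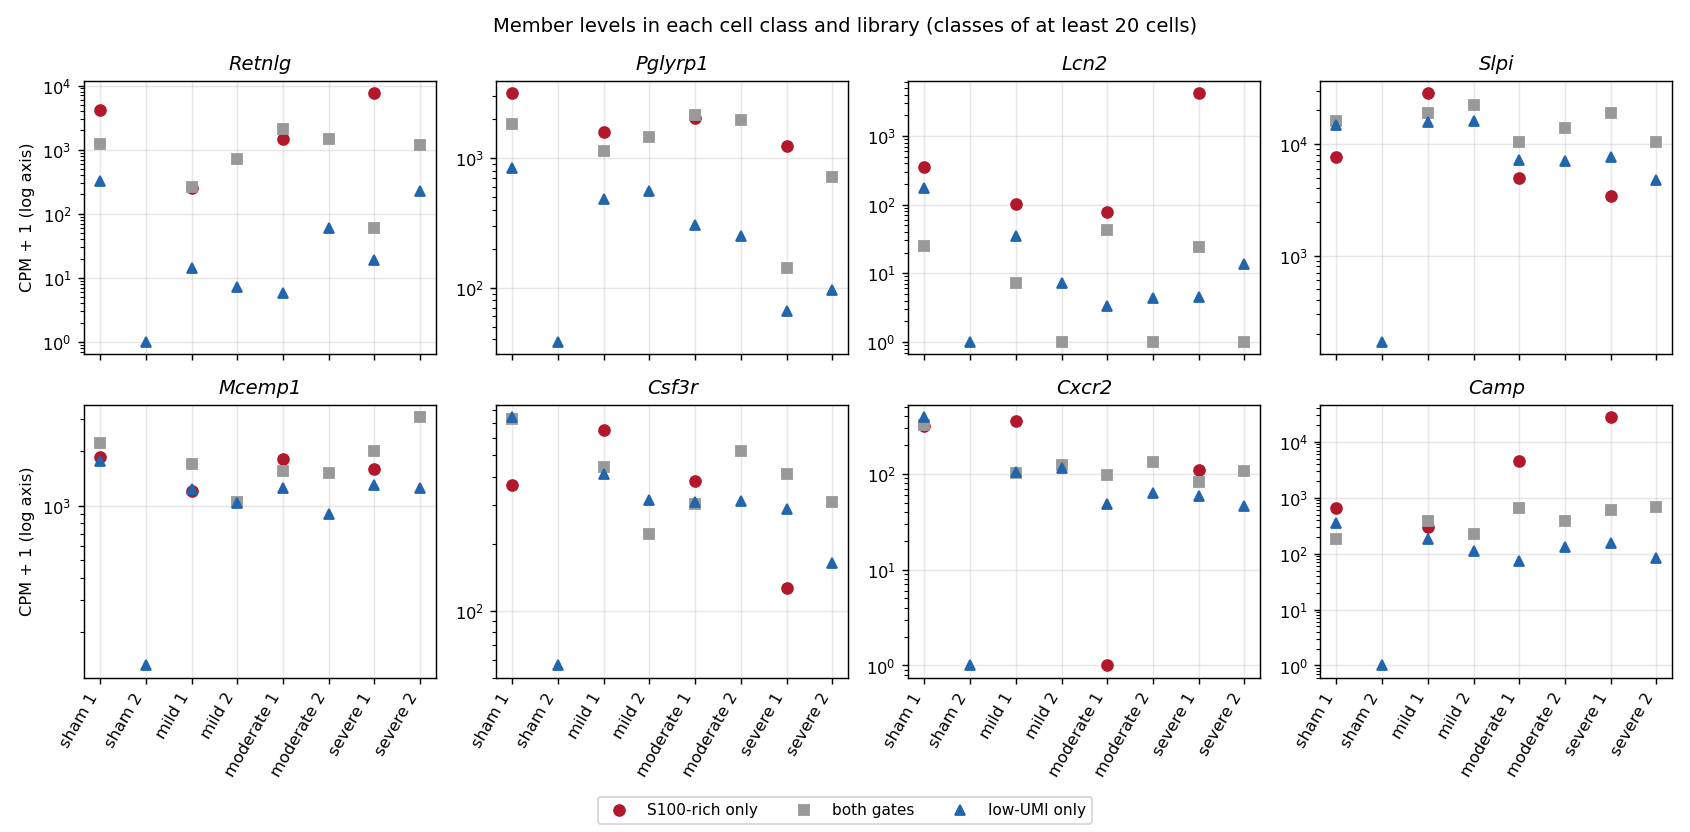
CPM + 1 (log axis) of 8 of the genes in each library (horizontal axis) for cells that were only S100-rich (red circles), met both definitions (grey squares) or were only low-UMI (blue triangles), where a library held at least 20 such cells; Ltf is not drawn. The red circles of Retnlg and Pglyrp1 lie above the blue triangles of the same library in all 4 libraries, while those of Slpi and Csf3r lie on either side.

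Most S100-rich cells outside sham replicate 1 met both definitions, so the comparison was repeated with these cells counted as S100-rich. This gave 7 libraries, all but sham replicate 2, and 3359 genes tested. Of all these genes 419 were called, a larger share than the 237 of 5216 in the 4 libraries, so calls were more common here in general. Retnlg (log2 fold change 5.57), Lcn2 (4.43), Camp (3.34) and Pglyrp1 (2.88) remained higher. Mcemp1 (0.78, SE 0.15), Cxcr2 (0.67, SE 0.199) and Slpi (0.66, SE 0.17) now also passed edgeR's quasi-likelihood test with adjusted p of 0.0023, 0.033 and 0.0138. Csf3r was at 0.29 with an adjusted p of 0.316. Slpi and Csf3r thus had another sign than in the 4 libraries, in a fit that differed in both its cells and its libraries. Within the 4 shared libraries, adding these cells turned the fold of Slpi from 0.69 to 1.24 in moderate replicate 1 and from 0.44 to 1.29 in severe replicate 1, and that of Csf3r changed sides in none.

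Depth differed between the classes in some libraries. The median S100-rich cell had 3618 UMIs in sham replicate 1 and 3959 in severe replicate 1, beside 1594.5 and 1510 in low-UMI cells, but 786 beside 779.5 in mild replicate 1. When all cells were held to 400 to 2500 UMIs, with those of both definitions counted as S100-rich, a choice made after seeing the data, Retnlg (3.93), Pglyrp1 (2.15), Camp (1.69), Slpi (0.82) and Mcemp1 (0.72) were higher. Cxcr2 was at 0.47 (adjusted p = 0.525 by edgeR) and Csf3r at 0.45 (adjusted p = 0.0794), and Lcn2 had too few counts to be tested. The share of all genes called in this fit is not given, so these calls are not set against it. With the 400 to 2500 limit and without the cells of both definitions only sham and mild replicate 1 were left. There Retnlg passed, at 3.11, and Camp was at -0.15. The part of cell depth in the differences of Camp and Pglyrp1 was not tested beyond these values.

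**Figure D2:**
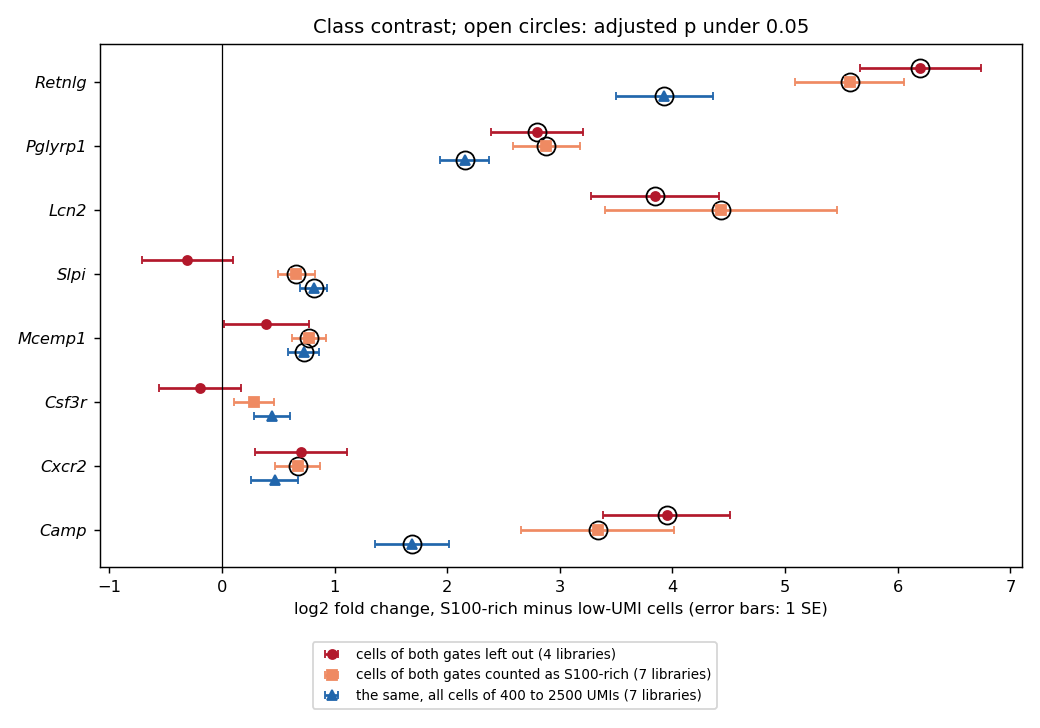
Log2 fold change of S100-rich over low-UMI cells (horizontal axis, error bars 1 SE) for the 8 tested genes, with the cells of both definitions left out (red, 4 libraries), counted as S100-rich (orange, 7 libraries), and the same with all cells at 400 to 2500 UMIs (blue, 7 libraries); ringed points had an adjusted p under 0.05. Retnlg and Pglyrp1 are ringed and to the right in all 3 fits drawn, and Slpi moves from -0.31 to 0.66 and 0.82. The fit at 400 to 2500 UMIs without the cells of both definitions, where Pglyrp1 lost its call, is not drawn.

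Within single libraries, the fold of all S100-rich cells over low-UMI cells reached its highest values for Retnlg, Camp, Lcn2 and Pglyrp1, but the lowest folds of Camp and Lcn2 overlapped those of Mcemp1 and Slpi. For Pglyrp1 it ran from 2.49 in mild replicate 1 to 16.1 in severe replicate 2 over 7 libraries. For Camp the lowest value was 1.69, in sham replicate 1, and the highest 106, in severe replicate 1. That of Lcn2 was 1.83 in sham replicate 1. Mcemp1 stayed above 1 in all 7 libraries, between 1.05 and 2.04. The receptors and Slpi had lower levels in the S100-rich cells of sham replicate 1, with folds of 0.80 for Cxcr2, 0.55 for Csf3r and 0.58 for Slpi. These folds keep S100a8 and S100a9 in the total, which lowers the folds, most where these genes hold the largest share. In the 6 injured libraries the fold of Slpi lay between 1.24 and 2.18, that of Cxcr2 between 0.97 and 2.04 and that of Csf3r between 0.70 and 1.68.

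The share of cells with a UMI was compared after a random draw of 500 UMIs from each cell, which left out no cell, in the 4 libraries with both classes, a choice of libraries made after seeing the data. The draw included S100a8 and S100a9, which held 14.4% to 35.0% of the median S100-rich cell in these libraries. In the median low-UMI cell they held 0.0917% to 3.41%. Fewer of the 500 UMIs were thus left for other genes in S100-rich cells, and the part of this in the shares was not tested. Retnlg was found in 30.9% of thinned S100-rich cells and 2.40% of thinned low-UMI cells, as means over these libraries. In single libraries its share was 54.6% (95% Wilson interval 52.7% to 56.6%), 8.00% (2.22% to 25%), 20% (8.07% to 41.6%) and 40.9% (23.3% to 61.3%) of the S100-rich cells of sham, mild, moderate and severe replicate 1. Intervals and limits for counts of 0 cover counting error only. The mean shares in S100-rich and low-UMI cells were 60.7% and 15.7% for Pglyrp1, 29.5% and 6.91% for Camp, and 12.1% and 1.18% for Lcn2. They were closer for Mcemp1, at 58.4% and 45.9%, Csf3r, at 21.3% and 19.5%, and Cxcr2, at 10.1% and 7.29%, and for Slpi the low-UMI cells had the higher share, at 78.9% and 80.5%. With the low-UMI mean over all 8 libraries, sham replicate 2 included, the order of Slpi was the other way, at 67.4% in low-UMI cells.

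Free RNA also gives UMIs, so oligodendrocytes, with library medians of 8141.5 to 18586 UMIs, served as cells that should lack these genes, beside medians of 786 to 3959 UMIs in S100-rich and 626 to 1963 UMIs in low-UMI cells. This background lay mostly in sham replicate 1. After thinning, the share of its oligodendrocytes with a UMI was 13.7% for Slpi, 4.88% for Pglyrp1, 3.01% for Retnlg and Mcemp1, and under 1% for the other genes. Over the other 7 libraries the mean share was 0.978% for Slpi, 0.117% for Pglyrp1 and 0.236% for Mcemp1, and no thinned oligodendrocyte held Retnlg, Camp, Lcn2, Csf3r or Cxcr2. In sham replicate 1 the thinned share for Retnlg was 8.55% in low-UMI and 54.6% in S100-rich cells, beside 3.01% in oligodendrocytes. Thinning a deeper cell can also dilute its free RNA, so the oligodendrocyte share may understate the background of low-UMI cells. Whether the low-UMI share lay above that background was not tested. The low-UMI shares of Retnlg in mild replicate 2 (0.235%) and moderate replicate 1 (0.177%) are 1 cell each, beside 0 of 1335 and 0 of 164 oligodendrocytes, which allow shares of up to 0.225% and 1.83%, so that a difference from background was not detectable there. Without thinning, Retnlg was found in 41.3% of S100-rich and 4.35% of low-UMI cells over the 4 libraries, and in 15.5% of the oligodendrocytes of sham replicate 1 and 0.0246% of those of the other 7 libraries.

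Near the limits of the classes, with all libraries pooled, some levels changed little and others more. Over all libraries, Retnlg was at 662 CPM in the 431 cells with 10 to 12% of their UMIs on S100a8 and S100a9 and at 681 CPM in the 362 cells with 12 to 14%. Pglyrp1 was at 1222 and 1091 CPM and Camp at 307 and 484 CPM in these bands. Lcn2 was at 41.8 and 109 CPM, from 31 and 75 UMIs. In cells of 400 to 2500 UMIs, those with 4 UMIs of G0s2, Cxcl2 and Il1b held 439 CPM of Retnlg and those with 5 UMIs 513 CPM.

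Other genes of granules and activation were followed in lists chosen by function. Of 10 further genes of specific and gelatinase granules 7 were tested between the classes, and 1, the neutrophil collagenase Mmp8, was higher in S100-rich cells (log2 fold change 3.51, edgeR adjusted p = 9.37e-13). The median of these 7 genes was 0.36. Of 6 azurophil granule genes 1 was tested and 0 called. The gene tested was Elane, which encodes neutrophil elastase, at 81.0, 150.4, 229 and 33.6 CPM in the S100-rich and 359, 203, 189 and 173 CPM in the low-UMI cells of sham, mild, moderate and severe replicate 1 (log2 fold change -1.16, edgeR adjusted p = 0.0843). Mpo, the myeloperoxidase that defines these granules, was at 0 in the low-UMI cells of all 8 libraries. In S100-rich cells it was also at 0 in sham, mild and severe replicate 1, and at 38.2 CPM in moderate replicate 1. Of 13 genes of the mature neutrophil surface 8 were tested and 0 called. Of a list of 5 genes, Anxa1 and S100 genes that did not choose the cells, all were tested and 1 was higher, Anxa1 (3.14). Anxa1 encodes an annexin, an inhibitor of inflammation that neutrophils carry in quantity. None of the S100 genes of the list was called.

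Genes of activation in tissue went the other way. Of 20 listed genes 18 were tested, 10 were lower in S100-rich cells and 0 were higher, with a median log2 fold change of -1.43. The largest falls were those of the chemokines Cxcl3, at -3.50, and Cxcl1, at -3.41 (edgeR adjusted p = 1.65e-10 and 2.24e-11). The low-UMI cells had been chosen by Cxcl2, Il1b and G0s2, which belong to the same kind of genes, so the list is not independent of the choice of cells. Of 8 transcription factors of neutrophil formation 7 were tested and 1 was lower, Junb (-1.48). Of 8 cell cycle genes 3 were tested and 0 called.

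Over all cells of a library, the levels of the genes followed sham replicate 1. Of all UMIs of a gene, sham replicate 1 held 95.2% for Retnlg, 93.0% for Pglyrp1, 89.5% for Cxcr2, 76.6% for Lcn2, 58.1% for Camp and 52.1% for Mcemp1. Retnlg lay at 611 CPM in sham replicate 1, 2.16 CPM in sham replicate 2, and between 0.644 CPM and 19.2 CPM in the injured libraries. Slpi lay at 2974 and 42.1 CPM in the sham replicates and between 528 and 1459 CPM in the injured libraries. Every injured value of Slpi thus lay between those of the sham libraries. In such sums more cells of a type and more RNA per cell cannot be told apart.

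Injured and sham libraries were compared over all cells, each degree of injury apart, by edgeR's quasi-likelihood test, with 2 libraries a group and 16433 genes tested. The number of genes with an adjusted p under 0.05 was 0 (0.0%) in the mild, 0 (0.0%) in the moderate and 102 (0.621%) in the severe group, 48 higher (0.292%) and 54 lower (0.329%). An unadjusted p under 0.05 was held by 3659, 3050 and 3448 genes, and DESeq2 called 2053, 1608 and 1885. None of the 8 tested genes of the group was called by edgeR in any of the 3 comparisons, and DESeq2 called 4, 5 and 3 of them lower. Their log2 fold changes lay between -8.50 and -0.47 in the mild group (adjusted p between 0.133 and 0.863), between -7.12 and -1.22 in the moderate group and between -5.47 and -0.19 in the severe group.

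The sign of these differences turned on which sham library was used. In the severe group the log2 fold change of Retnlg was -4.27, and it was 2.56 without sham replicate 1. That of Slpi was -0.39, and it was 4.46 without sham replicate 1 and -1.35 without sham replicate 2. In the fit without either sham replicate the sham arm is 1 library, which is assumed to vary like those of the injured groups. Calls from these fits are thus not read as results on the 9 genes, and only the fold changes are given here. Sham replicate 2 alone held 1 S100-rich cell. Of the listed genes of granules and activation, Fcnb (log2 fold change 3.36, adjusted p = 0.039), a ficolin, and the chemokine receptor Cxcr4 (3.50, adjusted p = 0.0383) were higher in the severe group by edgeR's test. Both calls were lost in the fit of the severe and sham groups alone, which called 0 genes, with 1429 at an unadjusted p under 0.05. Fcnb stood in the list of specific and gelatinase granules, but in these data it was among the 10 leading genes of the monocyte cluster, with 45.1% of its UMIs in monocytes and 0.0189% in the neutrophil cluster. Of the Cxcr4 UMIs 1.45% lay in the neutrophil cluster.

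The low-UMI cells were present in all injured libraries and allowed a comparison between degrees of injury. None of the 8 tested genes passed edgeR's test in it, in a fit of 7403 genes with 0 called (0.0%) for moderate against mild, 0 (0.0%) for severe against mild and 1 (0.0135%) for severe against moderate. The gene called was Retn, which encodes resistin, a hormone related to Retnlg, and was named after its value was seen. At an unadjusted p under 0.05 there were 406, 615 and 465 genes, and DESeq2 called 5, 28 and 34.

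Pglyrp1 came nearest to a step with injury. Its level in low-UMI cells was 479 and 553 CPM in the mild, 305 and 252 CPM in the moderate and 65.2 and 95 CPM in the severe libraries, so that the 3 groups did not overlap. Csf3r, at 409 and 312 CPM, 308 and 310 CPM, and 287 and 164 CPM in the same order, was the other gene with separate groups, but the groups nearly touched. Mild above moderate above severe without overlap was met by 292 of the 7403 genes (3.94%). The log2 fold change of Pglyrp1 from mild to severe was -2.38 (SE 1.03, edgeR adjusted p = 0.576), and that of Csf3r was -0.30 (SE 0.95, adjusted p = 0.986).

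The call on Pglyrp1 depended on the sham libraries, which enter this contrast through the shared spread, the filter on low counts and the TMM factors. With the injured libraries alone, a choice made after seeing the data, its log2 fold change from mild to severe was -2.39 (SE 0.34, edgeR adjusted p = 0.0367). It also passed without sham replicate 1 or without sham replicate 2 (adjusted p = 0.0312 each), while DESeq2 gave an adjusted p of 0.449.

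Slpi was higher in both mild libraries, at 15657 and 16226 CPM, than in the moderate, at 7179 and 7088 CPM, and the severe libraries, at 7697 and 4754 CPM. The moderate and severe libraries overlapped. Cxcr2 was at 103 and 112 CPM in the mild, 47.3 and 62.1 CPM in the moderate and 56.9 and 45.1 CPM in the severe libraries. Lower in moderate than in mild libraries without overlap were 5 of the genes, Pglyrp1, Lcn2, Slpi, Csf3r and Cxcr2, beside 25.1% of all genes, and none was higher, beside 24.4%. Lower in severe than in mild libraries were 4, Pglyrp1, Slpi, Csf3r and Cxcr2, beside 34.7% of all genes. Higher in severe than in mild libraries were Retnlg and Mcemp1, beside 12.9% of all genes. Between the severe and moderate libraries Pglyrp1 and Csf3r were lower, beside 31.0% of all genes, and Lcn2 was higher, beside 11%. Lcn2 was at only 3.56 CPM among 1686710 UMIs in severe replicate 1 and lower in the moderate libraries. The order of Lcn2 thus rests on few UMIs. The log2 fold change of Slpi from mild to severe was -0.97 (SE 1.39, edgeR adjusted p = 0.927).

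Retnlg had the widest difference from mild to severe in low-UMI cells, with 13.1 and 6.25 CPM in the mild and 17.8 and 226 CPM in the severe libraries. The 6.25 CPM of mild replicate 2 rests on few UMIs among 320156. The log2 fold change of Retnlg was 3.63 (SE 1.5, edgeR adjusted p = 0.55). The value of 226 CPM is that of the library in which 1 cell held most Retnlg UMIs, and 20.7 CPM were left without this cell.

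The marker sums of the low-UMI cells also differed between libraries. All 12 neutrophil markers summed to 32706 and 33462 CPM in the mild and 27742 and 19681 CPM in the moderate libraries. In the severe libraries they summed to 15981 and 14134 CPM, with 9 or 10 of 12 markers detected in each injured library. Most of each sum was S100a8 and S100a9, which also kept cells of 12% or more out of the class. The other 10 markers summed to 2034 and 2352 CPM in the mild and 1755 and 3021 CPM in the moderate libraries. In the severe libraries these 10 summed to 2057 and 1086 CPM, so that the groups overlapped. The markers of macrophages and microglia summed to 5575 and 8446 CPM, 13256 and 16688 CPM, and 5177 and 14734 CPM, with 14 to 16 of 16 detected. The part of either in the levels of Pglyrp1 and Slpi was not tested.

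**Figure D3:**
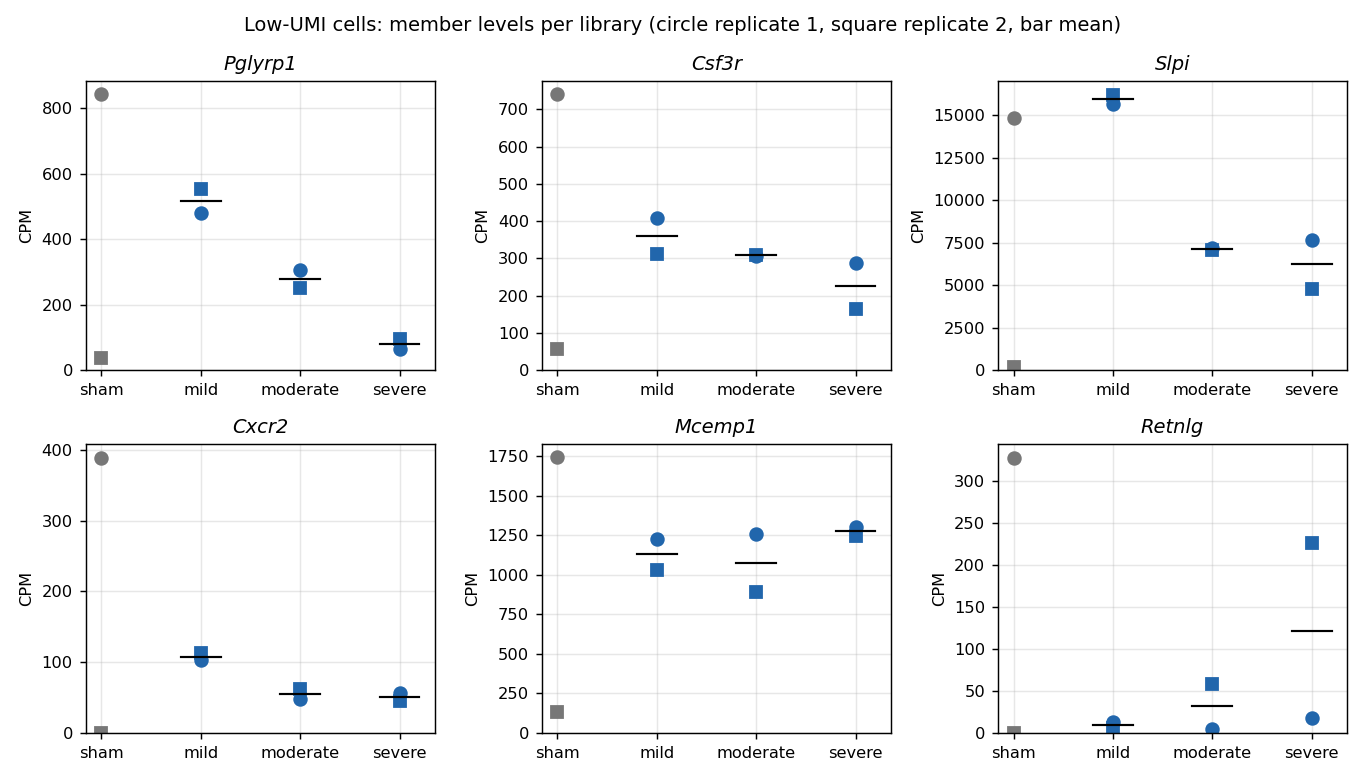
CPM (vertical axis) of 6 of the genes in the low-UMI cells of each library by group (horizontal axis), with circles for replicate 1, squares for replicate 2, the sham libraries in grey and bars at the mean of the 2 injured libraries. Pglyrp1 steps down from 479 and 553 CPM in mild to 65.2 and 95 CPM in severe libraries without overlap, and the high severe point of Retnlg, 226 CPM, rests on 1 cell.

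Camp was concentrated in few cells. Those with at least 10 Camp UMIs numbered 215, or 0.313% of all cells, and held 48.7% of all Camp UMIs. Sham replicate 1 contributed 187, or 1.69% of its cells, 13 came from severe replicate 1, 8 from severe replicate 2, 4 from moderate replicate 1, 2 from mild replicate 1 and 1 from mild replicate 2. The 13 cells of severe replicate 1 held 89.2% of the Camp UMIs of their library. Most of the 215 cells, 176, were only S100-rich.

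These Camp-rich cells were chosen by Camp, and their other genes are given as a description. Camp itself was at 2877 CPM in those of sham replicate 1, 36397 CPM in severe replicate 1 and 10706 CPM in severe replicate 2. Ngp, which encodes neutrophilic granule protein, a relative of cathelicidin stored in specific granules, was at 229, 20054 and 14781 CPM in these libraries. Lcn2 was at 1360, 5386 and 4684 CPM. Of the Camp UMIs, 1 cell held 1082 of 3345 in severe replicate 1 and 1 cell 215 of 352 in severe replicate 2. Ngp and Lcn2, which did not choose the cells, were thus higher in those of the severe libraries than in those of sham replicate 1. In the 4 Camp-rich cells of moderate replicate 1 they were lower, with 1 UMI of Ngp (52.6 CPM) and 6 of Lcn2 (316 CPM). In S100-rich cells with fewer Camp UMIs, Ngp was at 5.56 CPM in sham replicate 1 and at 0 in both severe libraries, and Lcn2 at 196, 17.4 and 0 CPM.

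Slpi ran the other way in these cells, at 4798, 1610 and 1308 CPM in the Camp-rich cells of sham replicate 1 and severe replicates 1 and 2, beside 9164, 16405 and 9935 CPM in the S100-rich cells with fewer Camp UMIs. Csf3r was also lower, at 177, 97.9 and 122 CPM beside 435, 366 and 303 CPM. Retnlg was at 3880, 6659 and 10767 CPM beside 3693, 2527 and 1111 CPM. In severe replicates 1 and 2, 48 of 70 and 41 of 49 S100-rich cells met both definitions, with medians of 1782 and 1946 UMIs. Of the Camp-rich cells there, 11 of 13 and 5 of 8 were only S100-rich, and their medians were 7351 and 3710 UMIs. The 2 sets of cells thus also differed in class and depth, and the part of these in the levels was not tested. The azurophil genes Mpo, Prtn3 and Ctsg were at 0 in the Camp-rich cells of these 3 libraries, and Elane had 80, 4 and 1 UMIs there (61.1, 43.5 and 30.4 CPM), below its 110, 183 and 164 CPM in the S100-rich cells with fewer Camp UMIs. All 4 genes were found in the 2 Camp-rich cells of mild replicate 1, with 107 UMIs of Mpo, 38 of Elane, 8 of Ctsg and 5 of Prtn3, and these 2 cells were neither S100-rich nor low-UMI. Retnlg and Lcn2 were at 0 in them.

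**Figure D4:**
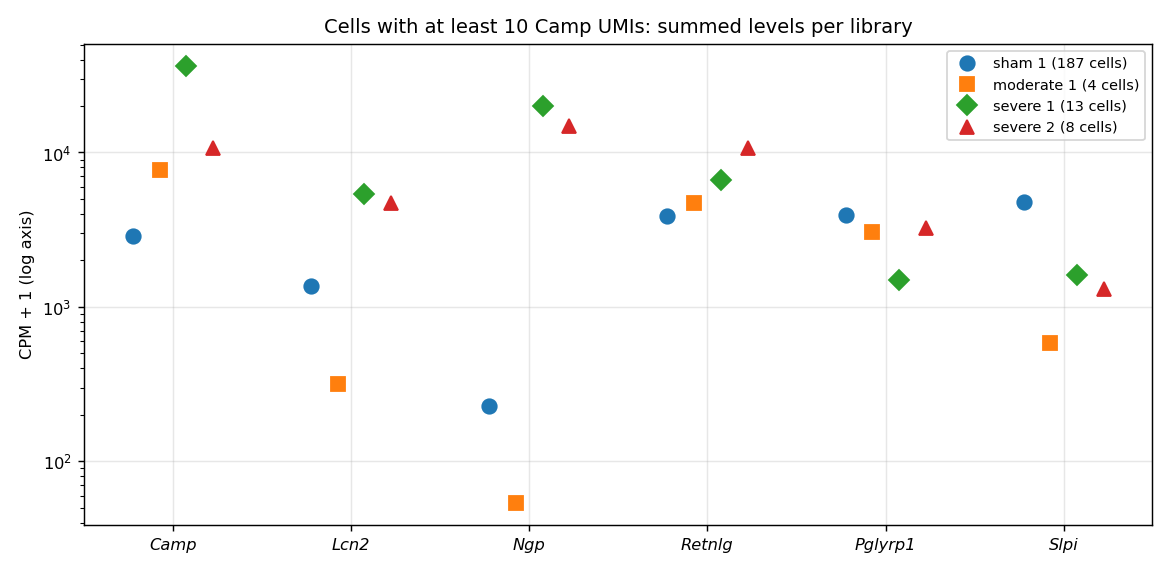
CPM + 1 (log axis) of 6 genes, summed over cells with at least 10 Camp UMIs, in the 4 libraries that held at least 4 such cells (sham replicate 1, moderate replicate 1, severe replicates 1 and 2). Ngp lies at 20054 and 14781 CPM in the severe libraries and at 229 CPM in sham replicate 1, and Slpi is highest in sham replicate 1.

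Clustering of the 55455 cells kept by the study's filters, with the 9 genes left out of the clustering, gave 22 clusters. One was named neutrophil by its markers and held 4887 cells, 4782 of them from sham replicate 1. Another of 5642 cells, with a median of 924.5 UMIs and led by G0s2, Cxcl2 and Il1b, had no neutrophil marker among its leading 10 genes and stayed unnamed as cluster 2. Means over libraries with at least 20 cells of a type are given with their SD, and neutrophils met this in 3 libraries, sham replicate 1, moderate replicate 1 and severe replicate 2.

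With sham replicate 1 included, 7 of the 8 detected genes other than Ltf were highest in the neutrophil cluster. The levels there were 6413 ± 3595 CPM for Retnlg, 3257 ± 1515 CPM for Pglyrp1, 2635 ± 2128 CPM for Camp, 1642 ± 667 CPM for Mcemp1, 941 ± 1152 CPM for Lcn2, 371 ± 146 CPM for Csf3r and 183 ± 141 CPM for Cxcr2 (SD, n = 3 libraries). In cluster 2 Retnlg was at 99.8 ± 93.5 CPM and Pglyrp1 at 406 ± 239 CPM (n = 7), while Mcemp1, at 1530 ± 396 CPM, and Csf3r, at 343 ± 64.4 CPM, were within the SD of the neutrophil cluster. Slpi was at 11437 ± 4373 CPM in cluster 2, 11018 ± 11626 CPM in monocytes (n = 5), 6983 ± 3295 CPM in neutrophils and 4640 ± 3426 CPM in dendritic cells (n = 6). Neighbours in this order overlapped within their SD. Without sham replicate 1, Csf3r was higher in cluster 2, at 351 ± 66.7 CPM (n = 6), than in neutrophils, at 312 ± 147 CPM (n = 2). Mcemp1 was then at 1437 ± 340 CPM in cluster 2 and 1490 ± 867 CPM in neutrophils.

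Outside myeloid cells the mean levels of the 8 genes other than Ltf were below those of the neutrophil cluster. Of all Lcn2 UMIs 56.1% lay in cells of neither class. Lcn2 reached 135 ± 116 CPM in endothelial cells (n = 4) and 37.2 ± 82.2 CPM in astrocytes (n = 7), beside 1.10 ± 2.15 CPM in oligodendrocytes (n = 8). The astrocyte mean rests on sham replicate 1, with 223 CPM from 29 UMIs in 23 cells, and without it was 6.15 ± 2.57 CPM (n = 6), while the endothelial mean was 77.1 ± 22.8 CPM (n = 3) without this library. Ltf was listed at 0 in the neutrophil cluster.

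The low-UMI cluster 9 stayed unnamed, since none of its leading 10 genes was a marker, but C1qa, C1qb, C1qc, Csf1r, Cx3cr1, Aif1 and Trem2 of the macrophage and microglia list were raised in it. Camp was there at 573 ± 1241 CPM (n = 8), a value of 2 cells, 1 of severe replicate 1 with all 1082 Camp UMIs of that library in the cluster and 1 of moderate replicate 1 with 101 of 102. Without the highest cell of each library it was 4.24 ± 6.59 CPM.

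**Figure D5:**
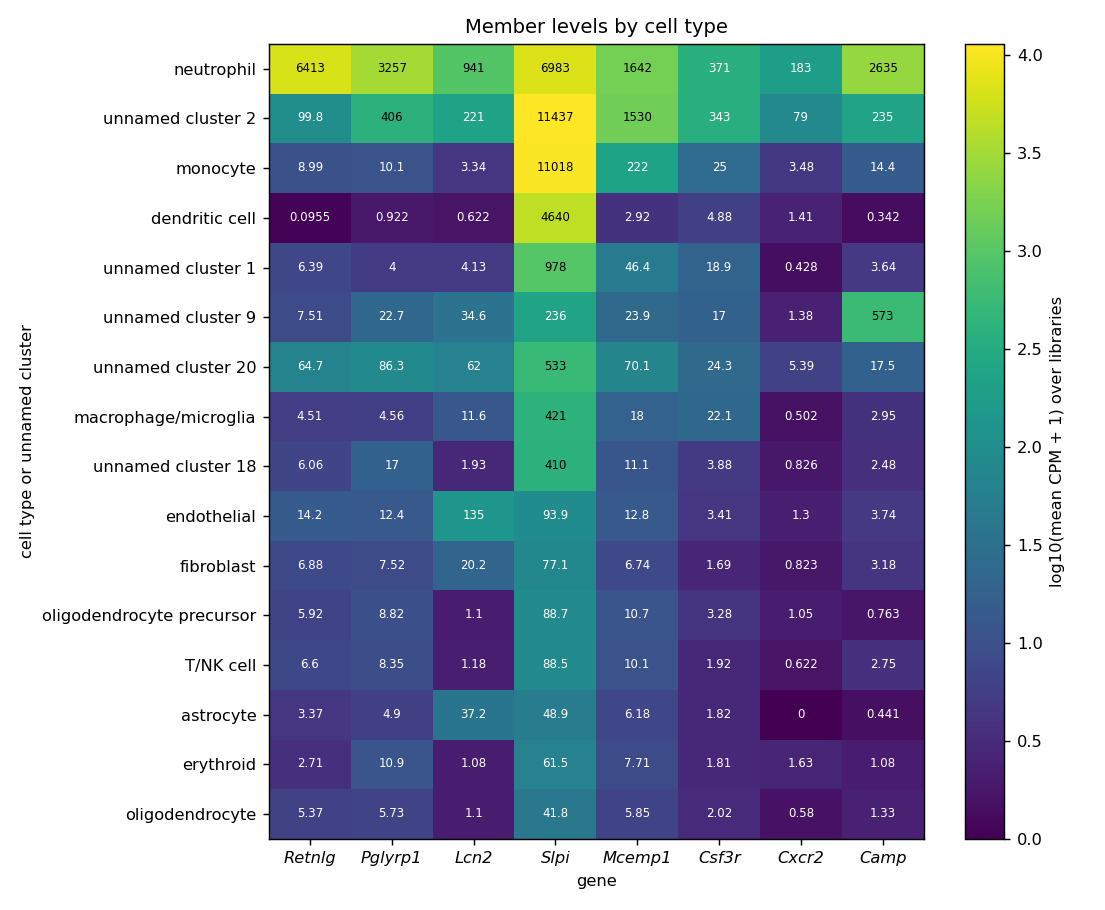
Mean CPM over libraries (number in each cell; colour, log10 of mean CPM + 1) of 8 of the genes (columns) in each cell type or unnamed cluster (rows). With sham replicate 1 included, the neutrophil row is highest for 7 of the 8 genes. Slpi is high in cluster 2, monocytes, neutrophils and dendritic cells alike.

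Over the 22 clusters, the genes with the most similar pattern of log2(CPM + 1) to Retnlg and Pglyrp1 were Stfa2, a stefin, with Pearson's r of 0.957 and 0.972, and AABR07034362.2 (0.954 and 0.97). Mcemp1 was nearest to Clec4d (0.949) and Hp (0.948), Csf3r to Osm (0.943) and RGD1561143 (0.934), and Cxcr2 to LOC108348155 (0.971) and Fcar (0.968). The nearest genes were less similar for Camp, Pirb (0.899) and Prelid3b (0.881), for Slpi, Ccr1 (0.876) and LOC100910669 (0.875), and for Lcn2, Oas1a (0.821) and Scgb3a1 (0.804). The clusters share libraries, so these values are descriptions across 22 points that are not independent.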

How the data were processed

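Single cells of the spinal cord of female Wistar rats were measured in 8 libraries, 2 for each of the sham, mild, moderate and severe groups, which were taken from the titles of the samples. The authors deposited raw UMI counts per gene and cell for each library, made with Cell Ranger 5.0.1 according to the file headers, on Rnor_6.0 according to the submitters' notes, with 32623 genes and no normalization. The supplementary methods of the paper name another version of Cell Ranger. Reads that near-identical gene copies share can be split or lost in this counting, and the chemistry reads only the 3′ end, so levels were not compared per length.

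Cells with 12% or more of their UMIs on S100a8 and S100a9 and cells of 400 to 2500 UMIs with 5 or more UMIs of G0s2, Cxcl2 and Il1b were taken from all deposited cells, doublets included. Of these cells 10155 passed the study's filters (mitochondrial share, the 7.7% of highest Scrublet scores with scanpy 1.11.5, and 2 SD of UMIs and genes), which were applied before clustering with Seurat 5.3.0 (R 4.3.3; 4000 variable genes, 15 components, resolution 0.4). Clusters were named by lists of markers.

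Counts were summed per library and class or over all cells, and tested with edgeR 4.0.16 (filterByExpr, TMM, quasi-likelihood test, Benjamini-Hochberg adjustment over all genes, threshold 0.05). The fit borrows the spread over genes, and small p-values rest on this, in the class comparison of 4 libraries as with 2 libraries a group. The class comparison had the library as a block and at least 20 cells of both classes per library. The other fits held all 4 groups and no block. The steps were tested on simulated counts. Alternatives were DESeq2 1.42.0, scaling by library size, all genes without the filter, other limits of the classes, the replicate number as a term, fits of the compared groups alone and fits without 1 library. A further 6 alternatives were added after seeing the data. Thinning, intervals and tables used Python 3.11.15, numpy 2.4.6, pandas 2.3.3 and scipy 1.17.1. Promoter stretches came from RefSeq on GRCr8, another build than that of the counts, and were matched by symbol.

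The 9 genes, the classes and the lists of other genes were chosen with earlier results of these data known. Named in the text are the 9 genes, the 2 largest rises and 2 largest falls of each list past the threshold, and for each of the 9 genes the 2 genes most similar over clusters.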

Additional observations from a re-analysis of the deposited data

Results flagged for a closer look

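In the fold of all S100-rich cells over low-UMI cells within a library, 3 genes went one way in sham replicate 1 and the other way in both libraries of an injured group. The difference in log2 CPM of Slpi was -0.7824 in sham replicate 1 and above 0 in both mild, both moderate and both severe libraries. That of Csf3r was -0.8589 in sham replicate 1 and above 0 in both moderate libraries. That of Cxcr2 was -0.3174 in sham replicate 1 and above 0 in both moderate and both severe libraries. Sham replicate 2 held 1 S100-rich cell and gave no value, so the sham group is 1 library here. The difference between groups was not tested. The median S100-rich cell of sham replicate 1 had 3618 UMIs, and 22.5% of its S100-rich cells were also low-UMI cells, beside 83.7% in the other libraries. S100a8 and S100a9, which count in the total of CPM, held 35.0% of the UMIs of the median cell that was only S100-rich in sham replicate 1. They held 3.41% in the median low-UMI cell there, which lowers the folds of other genes in this library. The folds were not computed without S100a8 and S100a9, so the sign of Cxcr2 is not settled. The part of depth, overlap and this share in the direction was not tested.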

How the results depend on the processing

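In the class comparison, the 4 higher genes stayed higher in each fit without 1 library, with log2 fold changes of 5.03 to 7.53 for Retnlg, 2.24 to 3.27 for Pglyrp1, 1.81 to 6.44 for Lcn2 and 2.54 to 5.59 for Camp. The number of higher genes was 4 in each of these fits, 7 with the cells of both definitions counted as S100-rich and 1 with S100-rich cells of 400 to 2500 UMIs only. All genes called were 119 to 258 without 1 library, 119 being without sham replicate 1. They were 141 with DESeq2, 375 with library size only, 390 with no filter on low counts, 61 with no library term, 27 with S100-rich cells of 400 to 2500 UMIs and 419 with the cells of both definitions. Without a filter on low counts the split was 156 higher and 234 lower. With S100-rich cells of 400 to 2500 UMIs Mcemp1 turned to -0.27 and Camp to -0.15. Slpi turned to 0.21 and Csf3r to 0.32 with no library term. With the cells of both definitions as S100-rich these were 0.66 and 0.29, then 0.82 and 0.45 at 400 to 2500 UMIs and 0.79 and 0.41 with no sham library. Csf3r ran from -0.36 to 0.13 without 1 library. A minimum of 50 cells and an S100 share of at least 20% could not be fitted, since fewer than 2 libraries were left.

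Against sham, DESeq2 called 4, 5 and 3 of the genes lower in the mild, moderate and severe group, and 2053, 1608 and 1885 genes in all. No filter gave 52, 95 and 311 genes. With only the severe and sham groups in the fit, 0 genes were called. Without 1 library, 0 to 2 of the genes were higher in each group and 0 to 7, 0 to 8 and 0 to 5 lower, with 0 to 3334, 0 to 3125 and 0 to 3437 genes called in all. The extremes came from leaving out a sham library. The severe value of Retnlg ran from -5.25 to 2.56 and that of Slpi from -1.35 to 4.46. Slpi was at 0.24 without the S100-rich cells and 0.32 without the cells of either definition.

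In low-UMI cells, the genes called for moderate against mild were 5 with DESeq2, 31 with no filter, 1 with injured groups only, 2 with a sum of at least 10 UMIs of G0s2, Cxcl2 and Il1b, 3 with at most 10% mitochondrial UMIs and 0 to 2 without 1 library. For severe against mild they were 28, 160, 11, 78, 99 and 0 to 58 in that order. For severe against moderate they were 34, 90, 23, 33, 47 and 0 to 39, and 4 with library size only. Of the 9 genes, 1, Retnlg, was higher for severe against mild with no filter, and 1, Pglyrp1, was lower with injured groups only, with a sum of at least 10 and with at most 10% mitochondrial UMIs. The last 2 settings also left sham replicate 2, with 11 and 18 low-UMI cells, under the minimum of 20 and out of the fit, and leaving it out alone gave 58 genes for severe against mild and the call on Pglyrp1. Without 1 library 0 to 1 was lower. Pglyrp1 ran from -2.46 to -2.28, Retnlg from 1.19 to 4.49, Slpi from -1.59 to -0.53 and Csf3r from -1.0 to 0.18.

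The replicate numbers do not pair the libraries by the labels, and the correlations of same-numbered libraries ran from -0.187 to 0.377. With the replicate number as a block 34 genes were called for severe against sham and 2 for severe against moderate, and the severe value of Slpi was 0.34. The block changed no other call on the 9 genes. Where not stated otherwise, the cause of a change was not tested. Counts of few UMIs in few cells limit Camp, Lcn2 and Retnlg outside sham replicate 1.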
